A study of Homo sapiens with 6 samples.

Results

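The RAS family small GTPases are small membrane-bound proteins that act as molecular switches. The 9 genes HRAS, NRAS, RRAS, RRAS2, MRAS, RALA, RALB, RAP1A and RAP1B were taken by their gene names from the table of gene expression, which lists 58676 genes, and all 9 were among the 13745 genes with a mean of at least 0.5 FPKM (fragments per kilobase of gene length, scaled to sequencing depth) that were tested. Expression was measured by RNA-seq in DCIS.COM cells, a human breast cancer cell line used as a model of ductal carcinoma in situ. NS control cells (n = 3) carried a lentiviral PLKO.1 Non-silencing control, and BCL9 KD cells (n = 3) carried a lentiviral PLKO.1 vector with an shRNA against BCL9, a co-activator of beta-catenin. Both groups were therefore transduced cells, grown in DMEM/F12 with 5% horse serum, 1 T75 flask for each replicate. A single shRNA sequence and a single control vector were used, so an effect of BCL9 loss and an effect particular to that shRNA cannot be told apart, and the p-values describe the spread between flasks of 1 cell line.

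A RAS family protein is active when it holds GTP and inactive when it holds GDP. Guanine nucleotide exchange factors (GEFs) load it with GTP, and GTPase-activating proteins (GAPs) make it hydrolyse GTP. HRAS and NRAS pass growth factor signals to the RAF-MEK-ERK kinase cascade and to phosphoinositide 3-kinase. The related RRAS, RRAS2 and MRAS act on integrins, phosphoinositide 3-kinase and the SHOC2 phosphatase complex. RALA and RALB lie downstream of RAS through their own exchange factors and act on the exocyst and membrane traffic, and RAP1A and RAP1B control integrin-based adhesion and cell-cell junctions. DCIS.COM cells descend from MCF10A-series cells that were transformed with an activated HRAS, and the table gives a single HRAS value for each sample. Whether reads of the introduced gene are counted in that value is not given in the sources used here, so each HRAS level, share and rank may or may not include them.

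The libraries held between 15222452 and 26949026 reads on genes. BCL9 itself was at 6.25, 6.24 and 5.34 FPKM in the NS control and at 2.86, 2.78 and 2.59 FPKM in BCL9 KD cells. It fell by 0.99 on the log2 scale (SE 0.0933, limma adjusted p = 0.00773), with every BCL9 KD sample below every NS control sample. That call was lost without NS control replicate 2, BCL9 KD replicate 2 or BCL9 KD replicate 3 (limma adjusted p = 0.0636, 0.0600 and 0.0700), while its direction stayed the same. Of the tested genes, 5.87% passed an adjusted p of 0.05, and as shares of all tested genes 2.96% were higher and 2.91% lower with BCL9 KD. In 34.2% of the tested genes the 3 values of a group did not overlap with the 3 values of the other group. All 5 basal epithelial markers (KRT5, KRT14, KRT17, TP63 and EGFR) were expressed, with a summed level of 983 to 1150 FPKM in the NS control and 1020 to 1070 FPKM in BCL9 KD cells, and none was called. The 4 luminal markers summed to 8.18 to 10.4 FPKM in the NS control and 8.23 to 9.02 FPKM in BCL9 KD cells, with ESR1 at or below 0.098 FPKM and PGR listed at 0. The 4 fibroblast markers summed to 0.695 to 0.728 and 0.726 to 0.899 FPKM, and the 3 leukocyte markers to at most 0.0059 and 0.0583 FPKM, respectively. Of the 2 endothelial markers, PECAM1 rose from 1.72 to 2.29 FPKM to 3.11 to 3.91 FPKM (log2 fold change 0.61, limma adjusted p = 0.0477), while CDH5 was at or below 0.0534 FPKM in every sample. The part of PECAM1-expressing cells in these results was not tested.

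RALB was the only one of the 9 genes that passed the test, and it was higher in BCL9 KD cells. MRAS was lower and RRAS and RRAS2 were higher in BCL9 KD cells with no overlap between the groups, but none of these 3 passed the test over all genes. HRAS, the most abundant of the 9, and NRAS, RALA, RAP1A and RAP1B had overlapping groups. In all, 7 of the 9 genes had a log2 fold change above 0 and 2 had one below 0, where 55.4% of all tested genes were above 0. The median log2 fold change of the 9 genes was 0.15, beside 0.04 over all tested genes. The 1 called gene is 11.1% of the 9, beside 5.87% of all tested genes and 2.96% called in the same direction. The 4 genes without overlap are 44.4% of the 9, beside 34.2% of all tested genes. Because these are bulk values, a lower value from less RNA per cell and one from fewer expressing cells cannot be told apart.

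**Figure D1:**
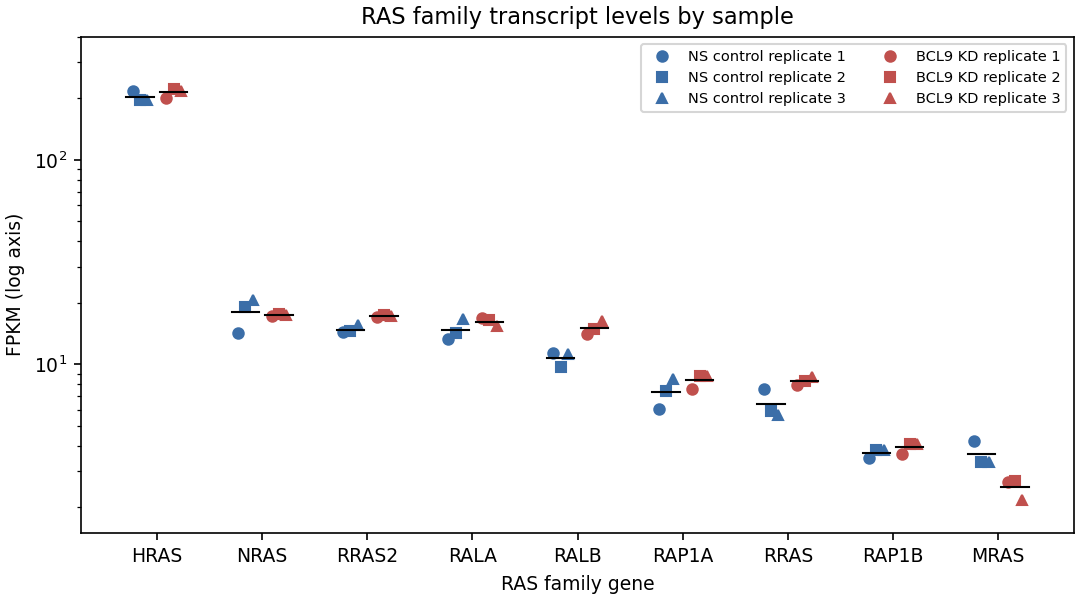
Level of each RAS family gene in FPKM (log axis) in the 3 NS control and 3 BCL9 KD samples, 1 point for each sample, with lines at the group means and 1 marker shape for each replicate number. HRAS lies between 196 and 222 FPKM, while every other gene is at or below 20.7 FPKM, and the groups are apart for RALB, RRAS, RRAS2 and MRAS.

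FPKM values are per gene length, so levels were set against each other on that scale. The order rests on the gene lengths in the deposited table, from 1160 bases for RRAS to 16942 bases for RAP1B, and whether these match the transcripts expressed in the cells was not tested. HRAS was the most abundant in both groups and MRAS the least, and the order of the 9 means was the same in both: HRAS, NRAS, RRAS2, RALA, RALB, RAP1A, RRAS, RAP1B and MRAS. In each sample the HRAS level was 9.52 to 15.1 times that of the next highest of the 9 genes, and HRAS made up 69.8% to 74.5% of their summed FPKM. Some neighbours in this order did not differ beyond their spread. In the NS control the ranges overlapped for NRAS and RRAS2, for RRAS2 and RALA, for RAP1A and RRAS, and for RAP1B and MRAS. In BCL9 KD cells they overlapped for NRAS and RRAS2, for RALA and RALB, and for RAP1A and RRAS. The summed level of the 9 genes averaged 283 ± 9.62 FPKM for the NS control and 303 ± 13.2 FPKM for BCL9 KD (SD, n = 3 each). The groups overlapped in this sum (273.8 to 293.0 and 287.7 to 312.6 FPKM), and its difference was not tested.

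RALA and RALB encode a closely related pair of RAL GTPases, and RALB is known for its part in exocyst signalling and cell survival. The promoter windows of the pair are shown because RALB was called and RALA was not. They run from 250 to 51 bases before a RefSeq transcript start (GRCh38.p14), and capitals mark matches on either strand to a GC box (GGGCGG) or a CCAAT box (CCAAT). The RALB window lies at chr2:120252602-120252801 on the plus strand, before a start inside the gene's span in the deposited table, and the RALA window at chr7:39623322-39623521 on the plus strand.
RALB: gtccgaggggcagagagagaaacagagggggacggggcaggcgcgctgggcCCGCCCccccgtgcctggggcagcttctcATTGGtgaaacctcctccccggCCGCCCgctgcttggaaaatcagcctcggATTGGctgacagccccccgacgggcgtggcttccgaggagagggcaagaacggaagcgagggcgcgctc
RALA: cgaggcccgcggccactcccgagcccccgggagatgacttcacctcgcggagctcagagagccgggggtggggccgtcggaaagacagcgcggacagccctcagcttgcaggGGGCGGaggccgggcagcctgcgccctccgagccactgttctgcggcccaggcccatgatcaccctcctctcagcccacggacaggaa
The RALB window had 70.0% G and C and held 2 GC box matches and 2 CCAAT matches. The RALA window had 72.0% G and C and held 1 GC box match and no CCAAT match. Of all 35116 RefSeq windows of this length, 35.0% held a GC box match and 27.4% a CCAAT match. Their median G and C content was 57.5%, lower than in either window shown. No match was found in either window to a TCF/LEF motif (CTTTGAT, in 1.89% of windows), a STAT motif (TTCNNNGAA, in 5.48%) or an AP-1 motif (TGANTCA, in 5.27%). These matches are descriptions of letters in the windows and not of binding.

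RALB (ENSG00000144118, chr2:120240064-120294713, plus strand, hg38) was at 11.4, 9.70 and 11.2 FPKM in the NS control and at 14.1, 14.9 and 16.3 FPKM in BCL9 KD cells. Every BCL9 KD sample was above every NS control sample. The means were 10.8 ± 0.942 and 15.1 ± 1.14 FPKM (SD, n = 3 each), a ratio of 1.40, and the log2 fold change was 0.47 (SE 0.0934, 95% confidence interval 0.25 to 0.69, limma adjusted p = 0.0404). These values rested on 498 to 1173 reads. The exact permutation test for the single gene gave the smallest p that 3 against 3 samples allow, 0.1 (two-sided). The call was lost without NS control replicate 2 (limma adjusted p = 0.148), without BCL9 KD replicate 2 (0.178) and without BCL9 KD replicate 3 (0.185). It was also lost with no filter on low values (0.207), with median-of-ratios scaling (0.0712), with no variance trend (0.0642) and with the replicate number as a block (0.101).

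RALA (ENSG00000006451, chr7:39623483-39708124, plus strand) was at 13.3, 14.2 and 16.6 FPKM in the NS control and at 16.8, 16.5 and 15.4 FPKM in BCL9 KD cells. The groups overlapped, since NS control replicate 3 lay above the lowest BCL9 KD sample. The log2 fold change was 0.15 (SE 0.0954, 95% confidence interval -0.08 to 0.37, limma adjusted p = 0.357). It was 0.08 without NS control replicate 1 and 0.23 without NS control replicate 3 (adjusted p = 0.585 and 0.0942 in limma). The level of RALB relative to RALA was 0.859, 0.682 and 0.677 in the NS control and 0.836, 0.906 and 1.06 in BCL9 KD cells. This ratio overlapped between the groups, because NS control replicate 1 was above BCL9 KD replicate 1, and its log2 difference of 0.34 had p = 0.2 in the exact permutation test and 0.5 after adjustment over the 5 ratios compared. The difference was 0.24 to 0.45 over all alternatives, and with 3 against 3 samples the test could not pass a threshold of 0.05, so whether RALB and RALA differ in response was not settled by it.

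**Figure D2:**
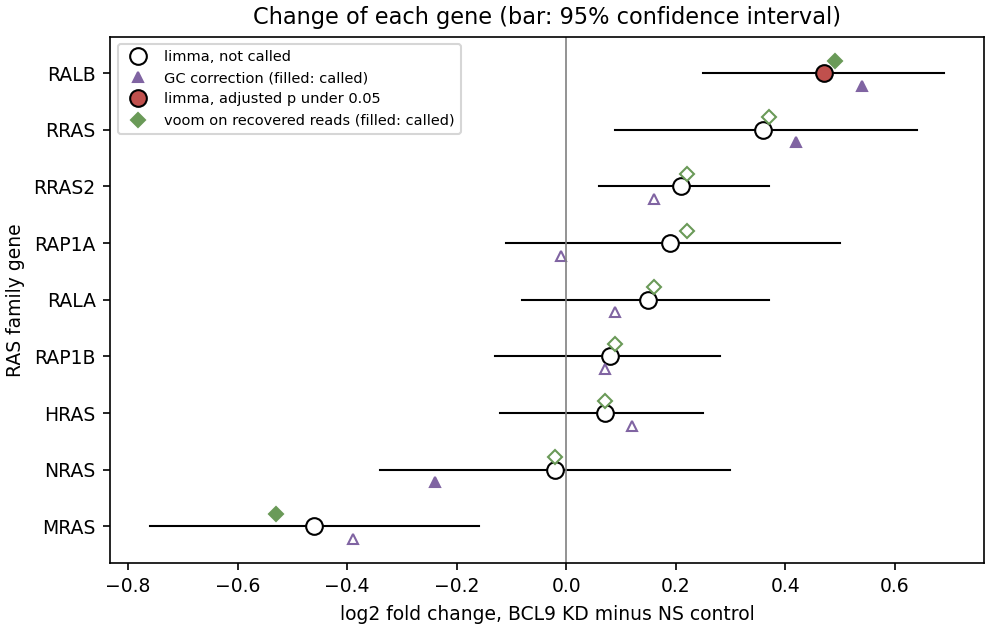
Log2 fold change (BCL9 KD minus NS control) of each gene with its 95% confidence interval, with the values from limma's voom on recovered reads (diamonds) and after a correction for GC content (triangles), filled where called. RALB is called under all 3, MRAS with voom alone, and RRAS and NRAS with the GC correction alone.

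MRAS encodes a GTPase that, with SHOC2 and a protein phosphatase 1 catalytic subunit, forms the phosphatase complex that activates RAF kinases. MRAS (ENSG00000158186, chr3:138347648-138405534, plus strand) was at 4.21, 3.34 and 3.33 FPKM in the NS control and at 2.66, 2.68 and 2.16 FPKM in BCL9 KD cells. All BCL9 KD samples lay below all NS control samples. The means were 3.63 ± 0.506 and 2.5 ± 0.295 FPKM (SD, n = 3 each), with a log2 fold change of -0.46 (SE 0.126, 95% confidence interval -0.76 to -0.16, limma adjusted p = 0.0743). With voom on the recovered reads, a test that called 10.2% of all tested genes, the value was -0.53 and was called (limma adjusted p = 0.0447). MRAS was the least abundant of the 9 genes, with 215 to 609 reads a sample.

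RRAS encodes R-Ras, known for its action on integrins. RRAS (ENSG00000126458, chr19:49635292-49640201, minus strand) was at 7.55, 5.92 and 5.66 FPKM in the NS control and at 7.90, 8.29 and 8.69 FPKM in BCL9 KD cells. The groups did not overlap, but NS control replicate 1 lay close to the lowest BCL9 KD sample. The log2 fold change was 0.36 (SE 0.115, 95% confidence interval 0.09 to 0.64, limma adjusted p = 0.103). It was called without NS control replicate 1 (log2 fold change 0.48, limma adjusted p = 0.0284). It was also called after the correction for GC content (0.42, limma adjusted p = 0.019), under which 12.0% of all tested genes were called. With the GC correction and the replicate number as a block, the call was lost (limma adjusted p = 0.0714). RRAS had the fewest reads of the 9 genes, 100 to 259 a sample.

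RRAS2, also known as TC21, encodes a GTPase that activates phosphoinositide 3-kinase. RRAS2 (ENSG00000133818, chr11:14277926-14364506, minus strand) was at 14.4, 14.5 and 15.5 FPKM in the NS control and at 17.0, 17.5 and 17.2 FPKM in BCL9 KD cells. The groups did not overlap and each was narrow, with means of 14.8 ± 0.612 and 17.2 ± 0.244 FPKM (SD, n = 3 each). The log2 fold change of 0.21 did not pass the test (SE 0.0652, 95% confidence interval 0.06 to 0.37, limma adjusted p = 0.0955).

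The log2 fold changes of MRAS and RRAS had opposite signs, and neither passed the test. The level of MRAS relative to RRAS was 0.558, 0.564 and 0.589 in the NS control and 0.336, 0.323 and 0.248 in BCL9 KD cells. The log2 difference was -0.93, and the groups did not overlap (exact permutation test p = 0.1, the smallest possible, and 0.5 after adjustment over the 5 ratios). With 3 against 3 samples this test could not pass a threshold of 0.05. The difference was -1.01 to -0.74 over all alternatives. For RRAS2 relative to RRAS the log2 difference was -0.17, and for RAP1B relative to RAP1A it was -0.12, with p = 0.4 for each in the exact permutation test. Without NS control replicate 1 these differences were -0.32 and -0.03, and without NS control replicate 3 they were -0.06 and -0.21. For NRAS relative to HRAS it was -0.09 (exact permutation test p = 0.9), with -0.31 without NS control replicate 1, -0.01 without NS control replicate 2 and 0.04 without NS control replicate 3. With the GC correction the difference of NRAS to HRAS was -0.36 (exact permutation test p = 0.1, the smallest possible).

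**Figure D3:**
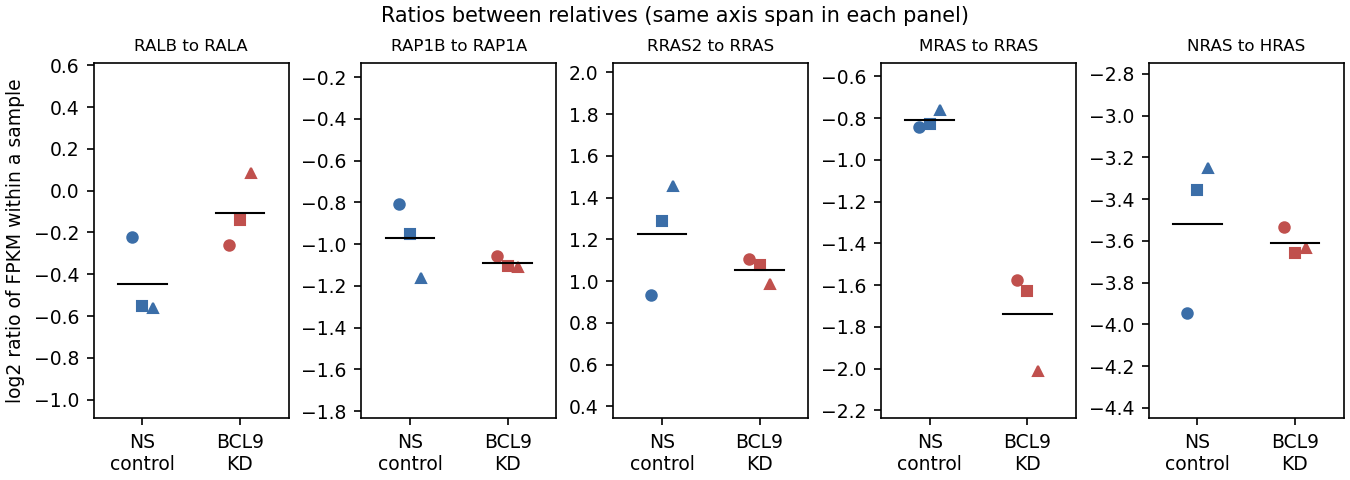
Ratio of 1 family gene to another in each of the 3 NS control and 3 BCL9 KD samples, as log2 of the FPKM ratio, with lines at the group means and marker shapes for replicates 1 to 3. The MRAS to RRAS ratio is lower in every BCL9 KD sample than in any NS control sample, and the other 4 ratios overlap between the groups.

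HRAS encodes the H-Ras protein. Its promoter window, shown because HRAS was the most abundant gene of the family, lies at chr11:535627-535826 on the minus strand, before a RefSeq start (GRCh38.p14) inside the gene's span in the deposited table. Capitals mark GC box matches and a match to an ETS motif (CCGGAAG, in 5.13% of all windows), on either strand.
HRAS: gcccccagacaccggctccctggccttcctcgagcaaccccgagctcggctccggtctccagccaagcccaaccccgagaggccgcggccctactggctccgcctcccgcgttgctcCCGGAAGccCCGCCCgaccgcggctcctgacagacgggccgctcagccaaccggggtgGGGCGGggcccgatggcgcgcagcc
The window had 76.5% G and C, beside a median of 57.5% over all windows, with 2 GC box matches and 1 ETS match. HRAS (ENSG00000174775, chr11:532242-537287, minus strand) was at 218, 196 and 197 FPKM in the NS control and at 201, 222 and 218 FPKM in BCL9 KD cells. The groups overlapped, between 201 and 218 FPKM. HRAS ranked 135 among the 13745 tested genes by mean FPKM. The log2 fold change was 0.07 (SE 0.0781, 95% confidence interval -0.12 to 0.25, limma adjusted p = 0.59), and its sign turned under quantile normalization (-0.13, limma adjusted p = 0.128). Leaving out 1 sample gave 0.04 to 0.12, the highest without NS control replicate 1, and no call. These values are those of the HRAS entry of the table, and changes of the introduced and the chromosomal gene cannot be told apart from them.

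NRAS encodes the N-Ras protein, which like HRAS is palmitoylated and cycles between the Golgi and the plasma membrane. NRAS (ENSG00000213281, chr1:114704469-114716894, minus strand) was at 14.2, 19.1 and 20.7 FPKM in the NS control and at 17.3, 17.6 and 17.5 FPKM in BCL9 KD cells. The BCL9 KD samples all lay within the range of the NS control, where replicate 1 was lowest. The log2 fold change was -0.02 (SE 0.136, 95% confidence interval -0.34 to 0.30, limma adjusted p = 0.928). It was -0.18 without NS control replicate 1, 0.03 without NS control replicate 2 and 0.08 without NS control replicate 3, none of them called. After the correction for GC content, under which 12.0% of all tested genes were called, it was -0.24 and called (limma adjusted p = 0.0444). With the replicate number as a block besides, this call was lost (limma adjusted p = 0.0928).

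RAP1A and RAP1B encode the RAP1 GTPases, which act through talin on integrins. RAP1A (ENSG00000116473, chr1:111542218-111716691, plus strand) was at 6.06, 7.37 and 8.51 FPKM in the NS control and at 7.59, 8.76 and 8.80 FPKM in BCL9 KD cells. The groups overlapped, and the log2 fold change was 0.19 (SE 0.130, limma adjusted p = 0.363), with its sign turned after the correction for GC content (-0.01). It was 0.07 without NS control replicate 1 and 0.30 without NS control replicate 3, neither of them called. RAP1B (ENSG00000127314, chr12:68610839-68671901, plus strand) was at 3.47, 3.81 and 3.80 FPKM in the NS control and at 3.65, 4.07 and 4.08 FPKM in BCL9 KD cells. The groups overlapped here too, and the log2 fold change was 0.08 (SE 0.0867, limma adjusted p = 0.573). When 1 sample was left out it was 0.04, without NS control replicate 1, to 0.13, without BCL9 KD replicate 1. Under quantile normalization it was 0.01. The processed pseudogene RAP1AP held 5 to 19 reads a sample, beside 717 to 1306 for RAP1A. The library kit does not mark strand, so reads of genes on the opposite strand within RALA, RAP1A and RAP1B cannot be told apart from theirs. Each of these opposite-strand genes averaged at most 0.744 FPKM in a group, and none reached the level for testing.

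NS control replicate 1 stood apart from the other NS control samples for several of the 9 genes, along the GC content of their transcripts. Its log2 deviation from the mean of the other NS control samples was -0.47 for NRAS, whose transcripts have 37.4% G and C, and -0.36 for RAP1A, with 38.5%. It was 0.36 for RRAS, with 64.8%, 0.15 for HRAS, with 64.7%, and 0.30 for MRAS, with 52.3%. RALA and RRAS2, with 43.7% and 43.8%, had -0.20 and -0.05. Pearson's r between deviation and GC content was 0.88 over the 9 genes, which share this library and are given as a description. Over all tested genes the median deviation was -0.36 for GC contents of 26.8% to 45.1% and 0.12 for those of 53.9% to 83.6%. For those of 45.1% to 53.9%, the range that holds MRAS, it was -0.02. For RALB, with 51.7%, the deviation was 0.12, and its log2 fold change was 0.54 after the GC correction (limma adjusted p = 0.0181).

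**Figure D4:**
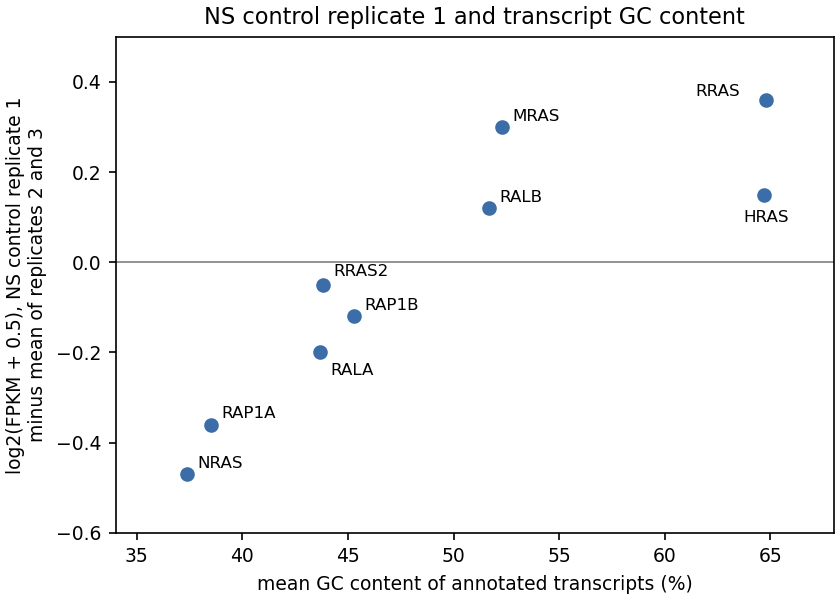
Log2 deviation of NS control replicate 1 from the other NS control samples against transcript GC content in percent, with 1 point for each of the 9 genes. The deviation is -0.47 for NRAS at 37.4% and 0.36 for RRAS at 64.8%.

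The regulators and effectors around the family were followed in 11 lists with 117 genes, of which 86 were tested. Of these, 4 were called higher and 2 lower, 6.98% beside 5.87% of all tested genes. The median log2 fold change of the 86 genes was -0.01, with 42 above 0 and 44 below 0. RASA1, a GAP for RAS, rose, as did PPP1CC, ABHD17C and PHLDA1. TLN1 and CCND1 fell. No gene was called among the RAS exchange factors (3 of 8 tested), the RAP1 GEFs and GAPs (11 of 12), the RAL GEFs and GAPs (7 of 9), the RAL effectors (5 of 6), the other RAS effectors (6 of 8) and the other RAS subfamily GTPases (12 of 26). The median log2 fold change of a list ran from -0.20 for the RAP1 GEFs and GAPs to 0.16 for the list of the SHOC2 complex and LZTR1.

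Among the GAPs for RAS, 1 of 7 tested genes was called higher and none lower, 14.3% beside 5.87% of all tested genes. Of the 7, 3 had a log2 fold change above 0 and 4 below 0. RASA1 was at 10.6, 15.6 and 19.2 FPKM in the NS control and at 35.7, 29.7 and 32.7 FPKM in BCL9 KD cells. The groups were well apart, with means of 15.1 ± 4.30 and 32.7 ± 2.99 FPKM (SD, n = 3 each) and a log2 fold change of 1.12 (SE 0.200, limma adjusted p = 0.0328). DAB2IP, the most abundant tested gene of this list, had a log2 fold change of -0.24 (adjusted p = 0.209 in limma), and SOS1, that of the exchange factors, had -0.03 (0.945).

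In the list of the SHOC2 complex and LZTR1, 1 of 6 tested genes was called higher and none lower, 16.7% beside 5.87% of all tested genes. Of the 6, 4 had a log2 fold change above 0 and 2 below 0. PPP1CC, a catalytic subunit of protein phosphatase 1, was at 28.5, 31.1 and 31.4 FPKM in the NS control and at 41.1, 38.1 and 36.9 FPKM in BCL9 KD cells (log2 fold change 0.35, SE 0.0746, limma adjusted p = 0.0466). The groups did not overlap. PPP1CA, another such subunit and the most abundant gene of the list, had a log2 fold change of -0.10 (adjusted p = 0.559 in limma).

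Among transcripts known to follow ERK activity, 1 of 10 tested genes was called higher and 1 lower. Over all tested genes 2.96% were called higher and 2.91% lower. Of the 10, 5 had a log2 fold change above 0 and 5 below 0, so the list as a whole had no common direction. CCND1, which encodes cyclin D1, was at 96.5, 96.3 and 81.3 FPKM in the NS control and at 67.0, 61.6 and 60.0 FPKM in BCL9 KD cells (log2 fold change -0.53, SE 0.0909, limma adjusted p = 0.0301). PHLDA1 was at 43.2, 49.9 and 50.0 FPKM and at 65.8, 62.1 and 63.5 FPKM, respectively (log2 fold change 0.42, SE 0.0795, limma adjusted p = 0.0370). The pair thus moved in opposite directions, and DUSP4, an ERK phosphatase and the most abundant gene of the list, had a log2 fold change of -0.22 (adjusted p = 0.151 in limma). The study also lists CCND1 among STAT3 targets, and which signal its fall follows was not tested.

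Among the RAP1 effectors, 1 of 5 tested genes was called lower and none higher, with 1 above 0 and 4 below 0. TLN1, which encodes talin 1, the link from integrins to actin, was at 64.9, 56.5 and 48.7 FPKM in the NS control and at 40.5, 35.4 and 36.2 FPKM in BCL9 KD cells (log2 fold change -0.59, SE 0.115, limma adjusted p = 0.0387). Of the 14 genes for prenylation and membrane trafficking, 1 was called higher and none lower (7.14%), with 8 above 0 and 6 below 0. ABHD17C, a member of the family of enzymes that remove palmitate from NRAS, was at 11.2, 10.8 and 12.0 FPKM and at 14.9, 16.5 and 14.6 FPKM, respectively (log2 fold change 0.42, SE 0.0800, limma adjusted p = 0.0373). ICMT, the methyltransferase of prenylated proteins, had a log2 fold change of -0.21 (0.166). For RAL regulators, the exchange factor RALGPS2 had a log2 fold change of 0.73 that did not pass the test (limma adjusted p = 0.0967), and EXOC2, an exocyst subunit that binds RALA and RALB, had -0.01 (0.938). SIPA1L3, a GAP for RAP1, had -0.44 (0.0581), RAP2B, a close relative of RAP1, had -0.35 (0.0736), and PIK3CB, a catalytic subunit of phosphoinositide 3-kinase, had -0.14 (0.276).

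**Figure D5:**
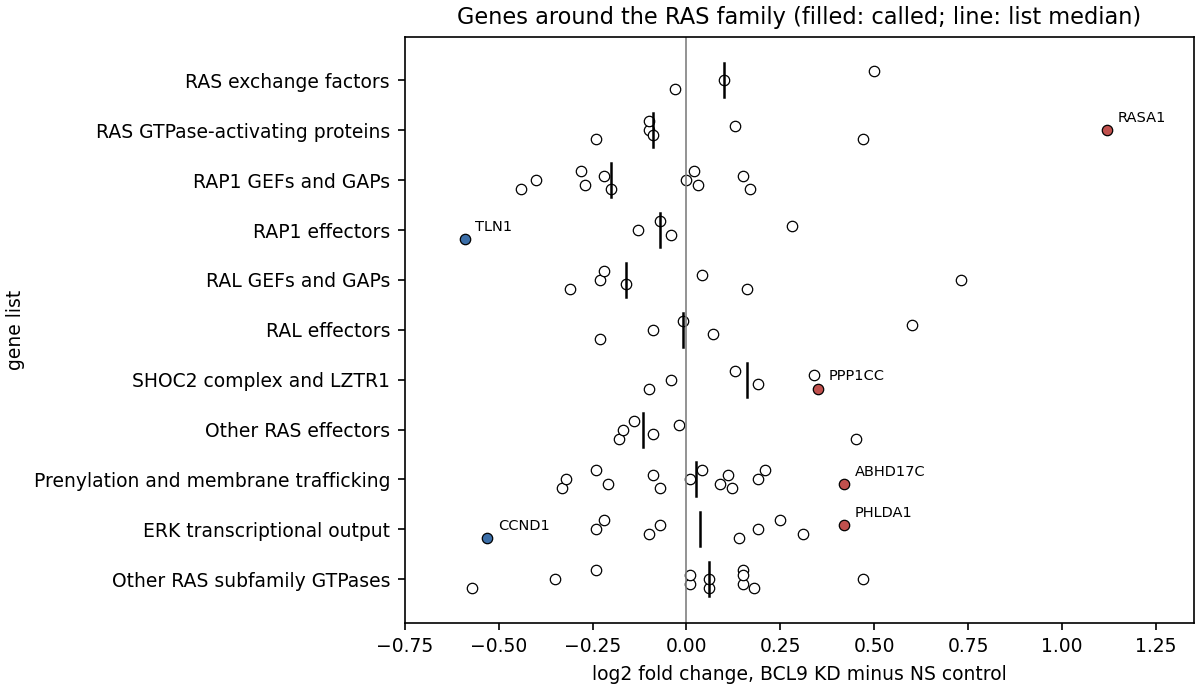
Log2 fold change (BCL9 KD minus NS control) of the tested genes in 11 lists of RAS regulators, effectors and related genes, with a line at each list's median. The 6 called genes are filled and named, with RASA1 highest at 1.12 and TLN1 lowest of the called genes at -0.59.

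The 6 called genes of the lists kept their direction in every alternative. None was called by limma without NS control replicate 2, BCL9 KD replicate 2 or BCL9 KD replicate 3, where the adjusted p of the 6 genes reached up to 0.192. The number of called genes in the lists was 17 without NS control replicate 3, 5 without NS control replicate 1 and 4 without BCL9 KD replicate 1. Over all 13745 tested genes the calls in these fits were 1712, 721 and 736, respectively. With voom on the recovered reads and with the GC correction, all 6 were called. No list gene was called with no filter, with no variance trend or with the replicate number as a block. Median-of-ratios scaling called 3 list genes, and the GC correction with the block called 1.

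RALB can also be placed by the genes whose levels followed it most closely over the 6 samples, among 6366 genes with a mean of at least 5 FPKM. RGS10, which encodes a regulator of G protein signalling, had the highest Pearson's r with RALB, 0.999, and averaged 14.4 ± 0.746 FPKM without and 17.4 ± 0.599 FPKM with BCL9 KD (SD, n = 3 each). CAPS and SEC11A followed, each with r of 0.996. These correlations are descriptions over 6 samples that fall into 2 groups, and the most similar of many genes are similar by selection.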

How the data were processed

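RNA-seq of NS control and BCL9 KD DCIS.COM cells (n = 3 each) was analysed from the deposited table of FPKM values, which the authors made from reads aligned to hg38. The submitters' processing notes name CASAVA, STAR and HTSeq 0.6.1, and the study's methods also name Tophat, Cufflinks, DESeq2 and edgeR. The gene-level FPKM values gave whole reads within a tolerance of 0.1.

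Genes with a mean of at least 0.5 FPKM were tested on log2(FPKM + 0.5) with limma 3.58.1 in R 4.3.3 (trended variance, Benjamini-Hochberg adjustment over all 13745 genes, threshold 0.05), so fold changes of low genes are understated. Ratios were compared by two-sided exact permutation tests, with Benjamini-Hochberg adjustment over the 5 ratios in scipy 1.17.1. Alternatives were another pseudocount, filter, scaling or variance model, voom in limma on reads recovered from the FPKM values, a correction for GC content, a replicate block and leaving out each sample. Transcript GC content came from a GRCh37 annotation matched by gene ID (98.8% of tested genes). Promoter windows matched 8 of the 9 genes.

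The genes named are the 9 members and a pseudogene of theirs, BCL9, cell type markers, every called gene and the most abundant tested gene of each list, and the 3 genes most correlated with the called member. Members and lists were chosen with earlier results of these data known. A planned list and 1 gene of another are not reported here. The code was tested on simulated data.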

Additional observations from a re-analysis of the deposited data

How the results depend on the processing

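Over the 9 genes and their alternatives, 136 values kept their sign and their side of the threshold, 8 were weaker, all of them for RALB, 4 were stronger and 5 changed sign. The sign changed for HRAS under quantile normalization (-0.13), for NRAS without NS control replicate 2 (0.03) and without NS control replicate 3 (0.08), in a range of -0.18 to 0.08 when 1 sample was left out, and for RAP1A with the GC correction alone (-0.01) and with the block (-0.01). It also changed for the ratio of RAP1B to RAP1A with the GC correction (0.08) and for that of NRAS to HRAS, which was -0.31 to 0.04 over the fits that left out 1 sample. The causes were not tested.

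The 807 calls over all genes became 0 with no filter (4398 genes at an unadjusted p under 0.05), 536 with median-of-ratios scaling, 332 with no variance trend, 1403 with limma's voom and 1650 with the GC correction. They were 5 to 1712 when 1 sample was left out, with 12 without NS control replicate 2, 13 without BCL9 KD replicate 2, 5 without BCL9 KD replicate 3 and 1712 without NS control replicate 3. The share of calls that were higher was 50.4%, but 43.4% with quantile normalization, 44.4% with median-of-ratios scaling and 56.2% with the GC correction. It was 40.0% (of 5 calls) to 66.7% (of 12 calls) when 1 sample was left out, with 61.7% of 736 calls without BCL9 KD replicate 1. Of the 9 genes, limma called 0 with no filter (4 at an unadjusted p under 0.05), median-of-ratios scaling (2) or no trend (4), 2 with voom, 3 with the GC correction and 0 to 2 when 1 sample was left out. Of all 13745 tested genes, 3652 were at an unadjusted limma p under 0.05 with median-of-ratios scaling and 3640 with no trend. The 6 called genes of the lists became 0 with no filter, 3 with median-of-ratios scaling, 0 with no trend, 15 with the GC correction and 0 to 17 when 1 sample was left out. BCL9 was at -0.99 with no filter (limma adjusted p = 0.0625) and at -1.06 to -0.95 when 1 sample was left out.

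The replicate numbers did not pair the samples: the mean correlation of deviations was -0.0795 for samples with the same number and 0.0387 for others. With the replicate number as a block, limma called 0 genes (3235 at an unadjusted p under 0.05), 0 of the 9 genes (4) and 0 of the list genes, and BCL9 was at -0.99 (adjusted p = 0.0656). With the block and the GC correction together, 154 genes, 0 of the 9 genes and 1 list gene were called, and 67.5% of the calls were higher. In the exact permutation test within replicate numbers the smallest possible p for a ratio is 0.25.

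RRAS had 100 to 259 reads a sample and MRAS 215 to 609. Intervals cover the spread between 3 flasks a group.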
